A study of Mus musculus with 15 samples.

Results

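The Hox cluster genes were examined in H3K4me3 ChIP–seq of mBA cells, mouse brown adipocytes in culture. The 38 listed Hox genes were all found by symbol among the 21770 protein-coding genes of the annotation, 10 in cluster A on chromosome 6, 10 in cluster B on chromosome 11, 9 in cluster C on chromosome 15 and 9 in cluster D on chromosome 2. A gene was counted as marked when a peak touched the 2000 bp on either side of any of its annotated transcript starts, and a peak shared by neighbours was counted once among peaks. H3K4me3, the trimethylated lysine 4 of histone H3, lies at promoters that are active or held ready.

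The cells were brown preadipocytes from newborn mice, immortalized with SV40 large T antigen under the PGK promoter and then differentiated, although the labels call them primary. WT cells were wild type with no treatment recorded, WT + 2HG cells were wild-type cells given octyl d-2HG, a cell-permeable 2-hydroxyglutarate (500 µM in DMSO for 72 h), and CLPP-KO cells came from mice that lack CLPP, a mitochondrial matrix protease. Uridine was added to the medium of the CLPP-KO cells alone, so that genotype, cell line and uridine cannot be told apart in this group, and whether WT cells received DMSO was not stated. Each condition had 4 ChIP samples and 1 input, called together into 1 peak list of 12342 (WT), 14059 (WT + 2HG) or 15118 (CLPP-KO) peaks. The lists hold no value and no read depth of a single sample, and no test between conditions was possible. All counts below are therefore descriptions. Those over the Hox genes are set beside the same count over all protein-coding genes where that applies, and counts of promoter peaks in other lists of coding genes are to be read beside 51.3% (WT), 56.4% (WT + 2HG) and 58.2% (CLPP-KO) of all protein-coding genes.

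Markers of the labelled cell type were marked in part. Among 7 general adipocyte markers, 3 had a promoter peak in WT and 5 in each of the other lists (Plin1 and Lpl, a droplet coat protein and a lipase, were added), whereas Fabp4 and Adipoq had none in any list. Of 9 brown adipocyte markers 2, 3 and 4 were marked in WT, WT + 2HG and CLPP-KO, and Ucp1, which uncouples respiration in brown fat, had no peak in any list. White adipocyte markers had 0, 1 and 1 of 4 marked, fibroblast and preadipocyte markers 4, 3 and 4 of 5, and endothelial markers 1 of 4 in every list. None of the 4 immune markers was marked in any list. Clpp itself had a promoter peak in every list, which does not check the labels because the place of the deletion was not given.

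Hox genes encode homeodomain transcription factors that give cells their position along the body axis. Within a cluster, genes of low number lie at the 3′ end and act in anterior regions, and genes of high number lie at the 5′ end and act in posterior regions. Outside their own territory they are held silent by Polycomb complexes, which place H3K27me3, and they are kept active by trithorax and MLL complexes, which place H3K4me3. Fat depots keep a Hox code of their own, and Hoxc8 and Hoxc9 are known for higher expression in white than in brown fat.

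The clusters were unevenly marked in untreated WT cells. A promoter peak was found at 20 of the 38 Hox genes in WT, at 31 with 2HG and at 35 in CLPP-KO, beside 51.3%, 56.4% and 58.2% of all protein-coding genes. In WT, the marked genes were 9 of 10 in cluster A, 6 of 9 in cluster C, 4 of 10 in cluster B and 1 of 9 in cluster D. In WT + 2HG these counts were 10, 8, 7 and 6, and in CLPP-KO they were 10, 9, 8 and 8. The counts thus differed most in cluster D, which was nearly bare in WT, and next in cluster B.

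Of the 18 Hox genes with no WT peak, 15 had a promoter peak in CLPP-KO and 11 in WT + 2HG, and were called gained there. Among all protein-coding genes without a WT peak, 14.9% were gained in CLPP-KO, 11.6% in WT + 2HG and 9.74% in both. Hoxa10, Hoxb2, Hoxb3, Hoxb8, Hoxc11, Hoxc12, Hoxd3, Hoxd4, Hoxd8, Hoxd9 and Hoxd11 were marked in both lists other than WT. Both of those lists were set against the same WT list, so their shared genes are not independent observations. Hoxb5, Hoxc10, Hoxd10 and Hoxd13 were marked in CLPP-KO alone. Hoxb1, Hoxb13 and Hoxd12 were marked in no list. No Hox gene with a WT peak was without one in either of the other lists, where 0.914% (WT + 2HG) and 0.672% (CLPP-KO) of marked protein-coding genes were without one.

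The promoters of 3 Hox genes are printed as examples for the genes marked in every list, in both lists other than WT and in none (GRCm39, read 5′ to 3′ on the strand of the gene, from 250 bp before to 50 bp from the canonical start on, CpG in capitals). Hoxa5 had the largest WT peak among the genes marked in every list (chr6:52181518-52181817, minus strand). Hoxa10 had the largest CLPP-KO peak among the genes marked in both lists other than WT (chr6:52211870-52212169, minus strand). Hoxb1 was the first by symbol of the genes with no peak (chr11:96256328-96256627, plus strand).
Hoxa5: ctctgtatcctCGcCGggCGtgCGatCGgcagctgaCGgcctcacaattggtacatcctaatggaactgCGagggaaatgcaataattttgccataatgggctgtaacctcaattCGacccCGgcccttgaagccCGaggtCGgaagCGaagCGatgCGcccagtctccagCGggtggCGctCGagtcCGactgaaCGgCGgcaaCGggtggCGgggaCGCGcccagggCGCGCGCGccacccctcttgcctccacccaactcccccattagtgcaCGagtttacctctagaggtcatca
Hoxa10: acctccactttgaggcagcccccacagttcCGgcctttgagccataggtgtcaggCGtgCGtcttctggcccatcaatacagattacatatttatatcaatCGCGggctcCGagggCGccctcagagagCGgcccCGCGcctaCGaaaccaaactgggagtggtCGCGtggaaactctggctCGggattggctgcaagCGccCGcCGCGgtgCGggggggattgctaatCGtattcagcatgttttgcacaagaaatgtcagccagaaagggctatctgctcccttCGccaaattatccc
Hoxb1: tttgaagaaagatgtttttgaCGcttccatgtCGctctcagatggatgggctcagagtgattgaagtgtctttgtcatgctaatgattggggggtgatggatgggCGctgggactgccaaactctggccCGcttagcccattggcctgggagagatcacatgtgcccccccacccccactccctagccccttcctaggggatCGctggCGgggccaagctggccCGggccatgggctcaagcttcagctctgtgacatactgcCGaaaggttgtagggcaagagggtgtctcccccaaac
These windows held 29 CpGs in Hoxa5, 21 in Hoxa10 and 8 in Hoxb1, with observed/expected ratios of 1.02, 0.853 and 0.322. They do not stand for the base composition of their groups, since the median ratio was 0.703 for the Hox genes marked in every list, 0.745 for those gained in both, 0.853 for those marked in CLPP-KO alone and 0.574 for those marked in no list, of which Hoxb1 was the lowest. Over all protein-coding genes the median was 0.744 for those marked in every list and 0.196 for those marked in none.

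The gained share was also set beside that of genes with a CpG-rich promoter, since CpG-rich promoters carry H3K4me3 more often. A promoter was called CpG-rich with a CpG observed/expected ratio of at least 0.6 and a GC content of at least 50% in this 300 bp window. Among such genes without a WT peak, 52.0% were gained in CLPP-KO and 43.3% in WT + 2HG. The CpG-rich Hox genes without a WT peak numbered 7, of which 6 were gained in CLPP-KO and 3 in WT + 2HG. The share of these 7 Hox genes was therefore near that of all CpG-rich genes in WT + 2HG (42.9%) and above it in CLPP-KO (85.7%). Most Hox genes without a WT peak were not CpG-rich by this definition, 11 of the 18. Of these, 8 (72.7%) were gained in WT + 2HG and 9 (81.8%) in CLPP-KO, beside 7.42% and 10.0% of all such genes that were not CpG-rich. The Hox shares thus stood above the background in both lists outside CpG-rich promoters, and in CLPP-KO alone within them. The class was read at the canonical start alone, whereas a gained peak could lie at any annotated start. Some Hox genes missed the class by GC content alone, such as Hoxb8 (ratio 0.970, GC 42.3%) and Hoxb5 (0.932, 48.0%). Others missed it by the ratio, such as Hoxd9 (0.470, 60.7%). The genes compared outside the class were thus not matched in base composition.

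**Figure D1:**
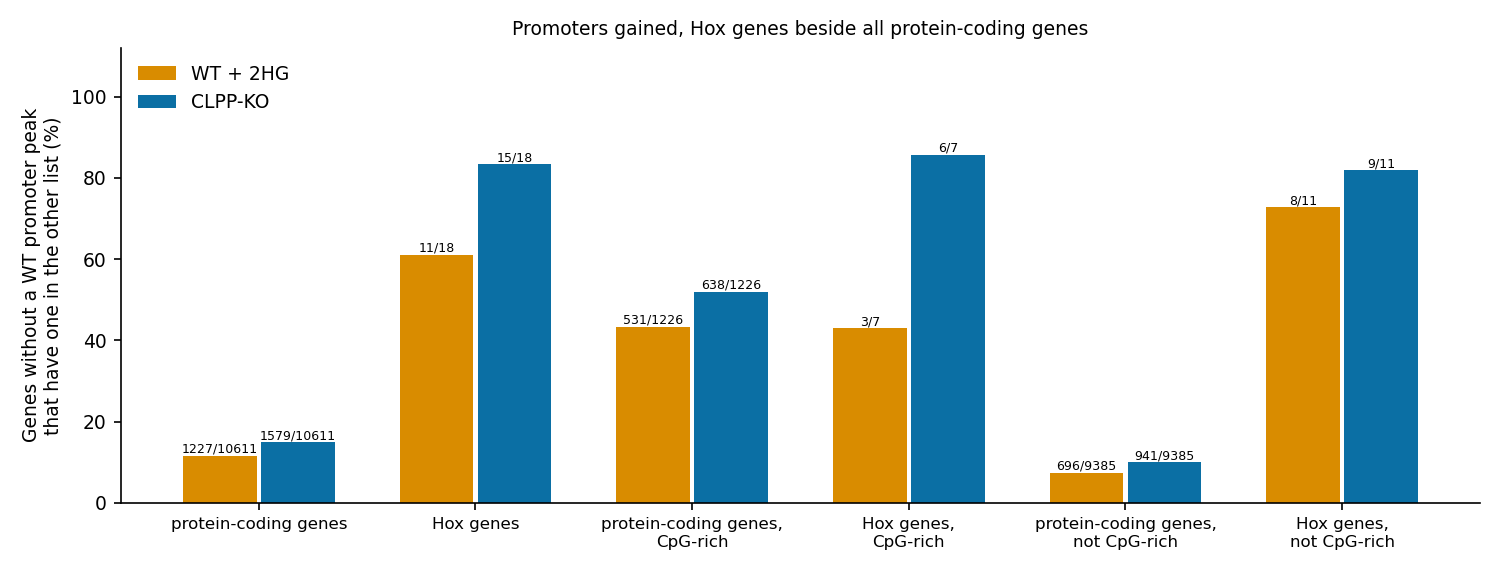
Share of genes without a WT promoter peak that had one in WT + 2HG (orange) or CLPP-KO (blue), in percent, with the number of genes above each bar. Hox genes were gained more often (61.1% and 83.3%) than all protein-coding genes (11.6% and 14.9%), also where the promoter was not CpG-rich (72.7% and 81.8% beside 7.42% and 10.0%), while among CpG-rich promoters the WT + 2HG bars are close (42.9% and 43.3%).

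Peaks were compared by percentile, the rank of a peak's area under the curve within its own list on a scale of 0 to 100, because areas are not scaled between lists. A difference in percentile is thus one of rank and not of signal, and it also varies with the length of the lists, so values in lists limited to the size of the shortest are given beside the main counts. Each gene is given by its strongest promoter peak. The 11 Hox genes gained in WT + 2HG had a median percentile of 16.5 (range 4.40 to 38.9), close to the median of 15.5 over all 1227 protein-coding genes gained there. The 15 Hox genes gained in CLPP-KO had a median of 52.8 (range 6.01 to 86.9), beside 20.4 over all 1579 genes gained there. In CLPP-KO, 8 of the 15, among them Hoxd3 and Hoxd4 with the same peak, lay above the middle of the list, which 4.31% of all genes gained there did. In WT + 2HG none of the 11 did, beside 0.978%. In lists of equal size, 3 of 13 gained Hox genes lay above the middle in CLPP-KO (Hoxa10, Hoxb2 and Hoxd9), beside 3.48% of all genes gained there, and their median was 46.3 beside 12.3. With 2HG none of the 8 Hox genes still gained did, beside 0.779%. The gained Hox genes were thus among the weak peaks of the WT + 2HG list and ranked higher within the CLPP-KO list, where the number above the middle varied with the length of the list.

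**Figure D2:**
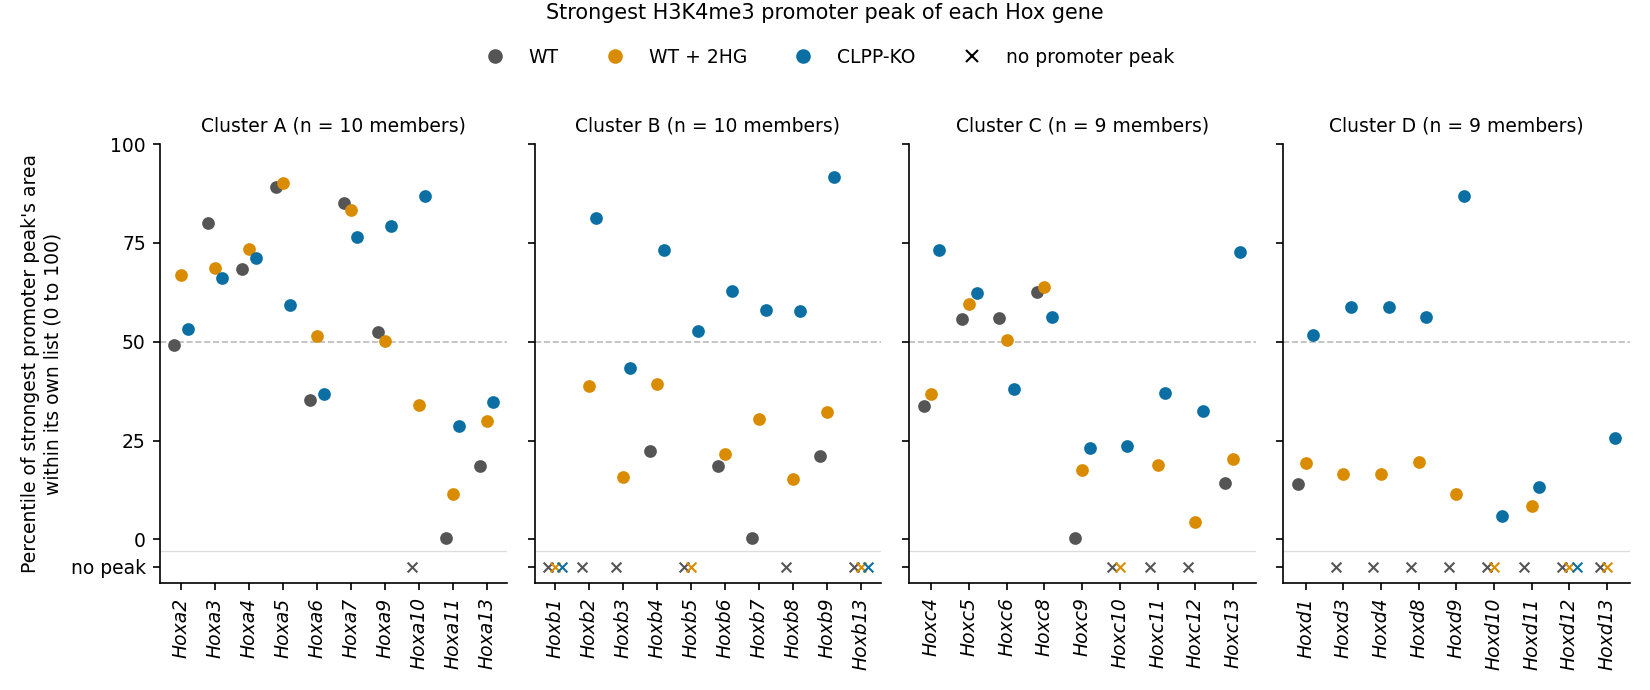
Percentile of the strongest promoter peak of each Hox gene within its own list (vertical axis, 0 to 100), by cluster and gene, for WT (grey), WT + 2HG (orange) and CLPP-KO (blue), with crosses where there was no peak. In clusters B and D every blue point lies above the orange and grey points of the same gene, whereas in cluster A Hoxa3, Hoxa5 and Hoxa7 are lower in CLPP-KO than in WT.

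CLPP-KO and WT + 2HG were next compared directly. In the 31 Hox genes marked in both, the percentile was at least 20 points higher in CLPP-KO for 17, which was so for 4.39% of protein-coding genes marked in both, and at least 20 points lower for 1, Hoxa5 (1.16%). The median difference was 27.6 points for the Hox genes and 1.59 points for all protein-coding genes. Of the 11 Hox genes gained in both, 9 were at least 20 points higher in CLPP-KO, beside 15.2% of all genes gained in both. By cluster, the difference was at least 20 points for 7 of 7 in B, 5 of 6 in D, 3 of 8 in C and 2 of 10 in A. Hoxd3 and Hoxd4 enter these counts with the same peak, and with it counted once they were 16 of 30 Hox genes, 8 of 10 gained in both and 4 of 5 in cluster D. In lists of equal size, 15 of 27 Hox genes were at least 20 points higher in CLPP-KO (3.74% of protein-coding genes) and 2 at least 20 points lower (3.47%), with a median difference of 27.8 points beside -0.267 points. Of the 8 still gained in both, 7 were at least 20 points higher, beside 11.8%, and by cluster 7 of 7 in B, 4 of 4 in D, 2 of 7 in C and 2 of 9 in A were.

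**Figure D3:**
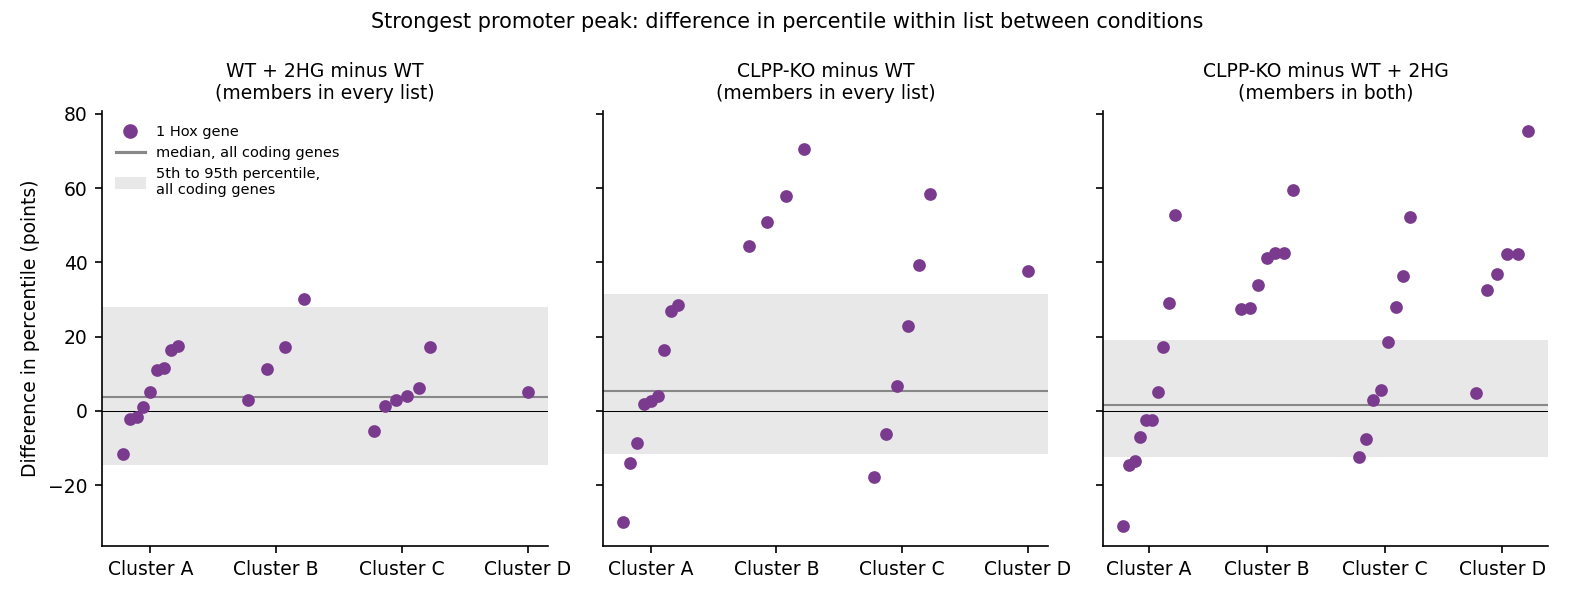
Difference in percentile of the strongest promoter peak between 2 lists, in points, for each Hox gene (purple) by cluster, with the median (line) and the 5th to 95th percentile (grey band) of all protein-coding genes. Cluster B lies above the band in both CLPP-KO panels, and 7 of 9 cluster A genes lie within it for CLPP-KO minus WT.

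Cluster A was the most fully marked in WT. Its strongest promoter peak there belonged to Hoxa5, a middle group gene known from lung and fat development, at percentile 89.2 in WT, 90.3 with 2HG and 59.3 in CLPP-KO. The Hoxa5 peak was 1912, 1726 and 1017 bp wide in these lists, so it was both lower in rank and narrower in CLPP-KO. Hoxa2, Hoxa3, Hoxa4, Hoxa6 and Hoxa7 were marked in every list, with differences between CLPP-KO and WT from -14.1 to 4.00 points, or from -21.7 to -3.87 points in lists of equal size. The strongest Hoxa3 peak lay away from its canonical start, with its summit 37245 bp from it in CLPP-KO. The Hoxa3 peak over the canonical start was at 78.4 in WT, 47.2 with 2HG and 51.0 in CLPP-KO. The genes from Hoxa2 to Hoxa7 thus stayed marked in all conditions, and none of them was ranked much higher in CLPP-KO.

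Hoxa10, a posterior gene needed for patterning of the uterus and hindlimb, had no WT peak within 5144 bp. It stood at percentile 34.1 with 2HG (1183 bp wide) and 86.9 in CLPP-KO (chr6:52210631-52212089, 1459 bp), where it had the largest promoter peak of the cluster. The CpG-rich sequence printed above lies for the most part under this peak. Hoxa9, its neighbour and a partner of Meis1 in blood cell growth, was at 52.5 and 50.2 in WT and WT + 2HG and at 79.4 in CLPP-KO, with 1, 1 and 3 promoter peaks. Hoxa11, which patterns the forearm, was at 0.284, 11.4 and 28.7, and Hoxa13, which acts in digits and the hindgut, at 18.4, 29.9 and 34.9. The genes of the 5′ end were thus gained or ranked higher in CLPP-KO than in WT, but Hoxa11 and Hoxa13 stayed in the lower part of each list. With lists of equal size, CLPP-KO differed from WT by 22.3 points at Hoxa9, 12.4 points at Hoxa11 and 1.77 points at Hoxa13.

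Cluster B had the largest median difference in rank between CLPP-KO and WT, 54.4 points over 4 genes. Hoxb9, a posterior gene of the thoracic skeleton, was at percentile 21.1 in WT, 32.3 with 2HG and 91.7 in CLPP-KO, where its peak (chr11:96161680-96163845) was 2166 bp wide against 987 bp in WT. It was the highest ranked promoter peak of any Hox gene in CLPP-KO. Hoxb4, known for expanding blood stem cells, had the strongest peak of the cluster in WT and WT + 2HG, at 22.2 and 39.4, and was at 73.1 in CLPP-KO. Hoxb6 was at 18.6, 21.7 and 62.9, and Hoxb7 at 0.267, 30.5 and 58.1. The 4 cluster B genes marked in every list thus ranked 44.3 to 70.6 points higher in CLPP-KO than in WT, and 3.04 to 30.2 points higher in WT + 2HG than in WT, although Hoxb6 differed by -7.85 points with 2HG when the lists were limited to equal size.

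The other marked genes of cluster B had no WT peak. Hoxb2, a hindbrain gene, was at 38.9 with 2HG and 81.3 in CLPP-KO (chr11:96243209-96244552). Hoxb8, known from microglia and myeloid progenitors, was at 15.2 and 57.7. Hoxb3, also a hindbrain gene, was at 15.8 and 43.3, with 1 and 4 promoter peaks. These lay at other annotated starts, and the strongest had their summits 18747 and 22709 bp from the canonical start. No list had a peak within 2000 bp of the canonical start of Hoxb3. Hoxb5, which acts in the developing gut nerves, was marked in CLPP-KO alone at 52.8, and its nearest WT + 2HG peak ended 3628 bp away. Hoxb1 and Hoxb13 at the 2 ends of the cluster had no peak within 10821 and 9140 bp of a start in CLPP-KO, the list with the most peaks. The marked Hox promoters of cluster B therefore ran from Hoxb9 to Hoxb2 in CLPP-KO. Outside that stretch CLPP-KO peaks lay within 2000 bp of annotated starts of Gm11538 and Gm53, noncoding genes between Hoxb13 and Hoxb9 (12.8 and 28.7). The latter peak was not at the 5′ end of Gm53. Another lay at the start of the noncoding gene Hoxb3os, beyond Hoxb2 (28.6).

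In cluster C the middle genes were marked in all lists, and between CLPP-KO and WT they differed less in rank than Hoxc4 and Hoxc13 at its ends. Hoxc8, the strongest of the cluster in WT and WT + 2HG, was at 62.6, 63.9 and 56.3 in WT, WT + 2HG and CLPP-KO. Hoxc5 was at 55.7, 59.5 and 62.3, and Hoxc6 at 55.9, 50.3 and 38.0, a difference of -31.9 points between CLPP-KO and WT in lists of equal size. These Hoxc6 peaks lay away from its canonical start. Within 2000 bp of that start the strongest peaks were at 32.2, 36.1 and 31.9. Hoxc9 was among the weakest WT peaks at 0.243 and was at 17.4 and 23.1 in the other lists. Of the pair linked to white fat, Hoxc8 was thus not higher in CLPP-KO, and Hoxc9 was higher, by 22.9 points or by 5.59 points in lists of equal size, but remained in the lower part of the list.

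The largest differences in rank in cluster C were at its ends. Hoxc4 was at 33.8 and 36.7 in WT and WT + 2HG and at 73.1 in CLPP-KO, where it was the strongest of the cluster, and its peak was 660, 579 and 1482 bp wide. Hoxc13, known for its part in hair and nail growth, was at 14.2, 20.4 and 72.7. Hoxc11 and Hoxc12 had no WT peak and were at 18.7 and 4.40 in WT + 2HG and at 37.1 and 32.5 in CLPP-KO. Hoxc10, a gene of the lumbar region and hindlimb, was marked in CLPP-KO alone at 23.5. Every member of cluster C had a peak in CLPP-KO.

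Cluster D carried a promoter peak in WT at Hoxd1 alone, at percentile 14.1. Hoxd1 was at 19.2 with 2HG and 51.8 in CLPP-KO, and its peak was 340, 1145 and 1308 bp wide. From Hoxd3 to Hoxd13 the nearest WT peak lay between 17418 and 89329 bp from a start. The remainder of the cluster was thus without H3K4me3 peaks in WT.

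Hoxd9, which acts with its neighbours in limb and lumbar patterning, was at 11.6 with 2HG and 86.8 in CLPP-KO (chr2:74527973-74529261, 1289 bp), a difference of 75.3 points and the largest of any Hox gene marked in both lists. Hoxd8 was at 19.4 and 56.2, the former being the strongest of the cluster in WT + 2HG. Hoxd3 and Hoxd4 have annotated starts next to each other and shared a strongest peak, at 16.5 and 58.9, whereas the peak at the canonical start of Hoxd4 was at 12.96 and 25.6. Hoxd11 was at 8.39 and 13.1, with peaks 1832 and 1729 bp from its nearest start, the closest of any Hox gene to the 2000 bp limit. Hoxd13, the digit gene at the 5′ end, and Hoxd10 were marked in CLPP-KO alone, at 25.6 and 6.01, and Hoxd12 between them in no list, with its nearest CLPP-KO peak 6165 bp away. In lists of equal size, Hoxd9 at 83.9 was the one gene of the cluster above the middle in CLPP-KO, Hoxd3 and Hoxd4 were at 49.6, Hoxd8 at 46.3 and Hoxd1 at 41.0, and peaks were lost at Hoxd9 and Hoxd11 with 2HG and at Hoxd10 and Hoxd11 in CLPP-KO. Cluster D was thus marked in both lists other than WT, in WT + 2HG by low-ranked peaks.

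The genes were also grouped by position along the clusters, although position cannot be told apart here from cluster and from rank in WT. Marked genes numbered 6, 10 and 10 of 11 for anterior genes (groups 1 to 4), 8, 10 and 11 of 11 for middle genes (5 to 8) and 6, 11 and 14 of 16 for posterior genes (9 to 13) in WT, WT + 2HG and CLPP-KO. Among genes marked in every list, the median rank in CLPP-KO less that in WT was 20.9 points for 6 anterior, -2.31 points for 8 middle and 27.7 points for 6 posterior genes. All 6 posterior genes were higher in CLPP-KO, by 16.4 to 70.6 points, whereas 4 of the middle genes were higher and 4 lower. The 4 lower genes lay in clusters A and C, while Hoxb6 and Hoxb7, the middle genes of cluster B, were 44.3 and 57.8 points higher. In WT the median percentile was 16.3 for these posterior and 55.8 for these middle genes. In lists of equal size, where the median over all protein-coding genes was -0.535 points, the posterior genes were still higher, by 1.77 to 68.7 points, whereas 3 anterior genes were higher and 3 lower (median 11.5 points) and 2 middle genes were higher and 6 lower (median -13.2 points).

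Over the 20 Hox genes marked in every list, 10 were at least 20 points higher in CLPP-KO than in WT (15.8% of protein-coding genes) and 1, Hoxa5, was at least 20 points lower (1.08%). In WT + 2HG 1, Hoxb7, was at least 20 points higher than in WT (12.8%) and none was at least 20 points lower (1.76%). With the canonical start alone, 2 Hox genes were at least 20 points lower in CLPP-KO and 1 in WT + 2HG. The median difference from WT was 5.10 points in WT + 2HG and 19.6 points in CLPP-KO, beside 3.69 and 5.30 points over all protein-coding genes. In lists of equal size, 8 Hox genes were at least 20 points higher in CLPP-KO than in WT (7.21% of protein-coding genes) and 3 at least 20 points lower (6.27%), and the median over the Hox genes was 3.68 points. With 2HG these counts were 1 (7.11%) and 0 (5.93%) of the 19 Hox genes left in both equal lists, and the median was -1.77 points with 8 genes higher and 11 lower, so that the direction with 2HG turned. The share of Hox genes ranked at least 20 points higher was thus above the background in CLPP-KO and not in WT + 2HG, also in lists of equal size, where the share ranked lower in CLPP-KO was above it as well.

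Peaks were then counted in place of genes. The Hox promoters held 29 distinct peaks in WT, 53 with 2HG and 60 in CLPP-KO. Of these, 24 (45.3%) in WT + 2HG and 33 (55.0%) in CLPP-KO overlapped no WT peak, against 18.7% and 24.0% of the whole lists. Such peaks are mostly weak: 0.267% of them with 2HG and 2.01% in CLPP-KO ranked above the middle of their list as deposited. Of the Hox peaks without WT overlap, 0 of 24 with 2HG and 8 of 33 in CLPP-KO did. The 8 lay at Hoxa9, Hoxa10, Hoxb2, Hoxb5, Hoxb8, Hoxd8, Hoxd9 and the shared start of Hoxd3 and Hoxd4. With lists limited to equal size by area, 12 of 39 Hox promoter peaks with 2HG and 23 of 47 in CLPP-KO overlapped no WT peak.

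**Figure D4:**
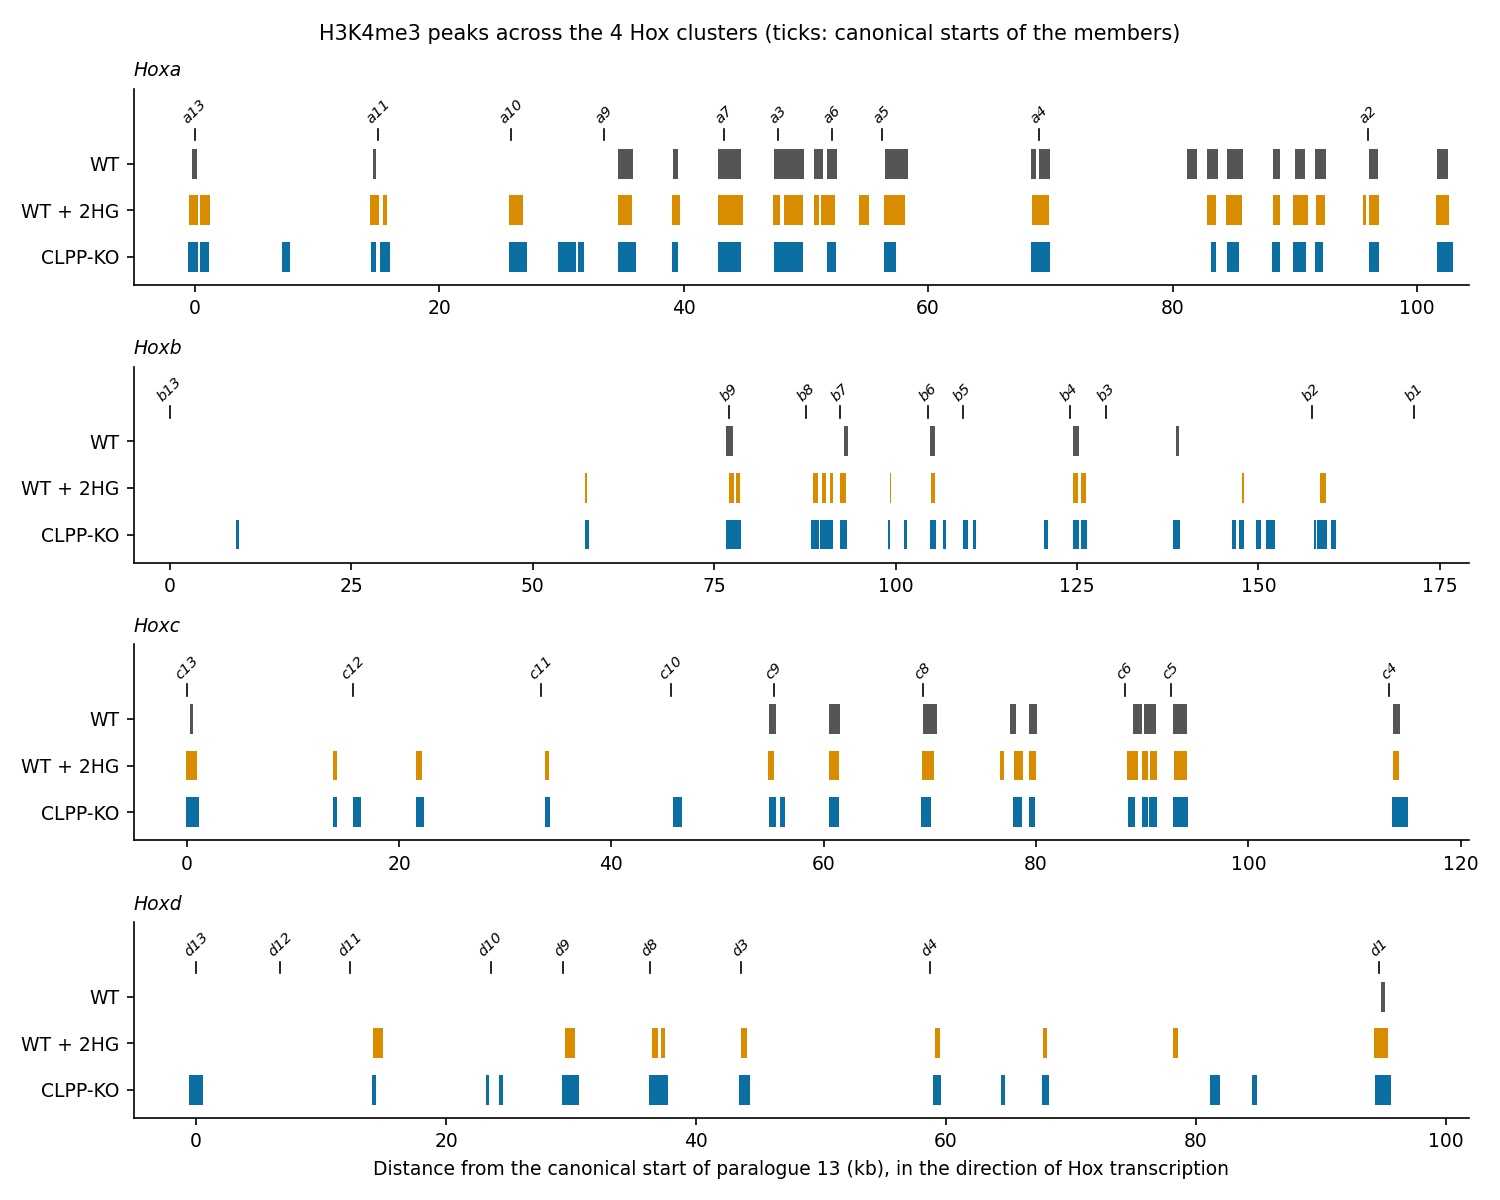
Peaks (bars, to scale) along the 4 Hox clusters in WT (grey), WT + 2HG (orange) and CLPP-KO (blue), by distance in kb from the canonical start of the paralogue 13 gene in the direction of transcription, with ticks at the canonical starts. Cluster A was covered in all 3 lists, and cluster D held 1 peak in WT, 9 with 2HG and 13 in CLPP-KO.

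The share of sequence under peaks depends on where gaps within a marked stretch were left uncovered, and was taken over each cluster with 5000 bp added on both sides. Cluster A was covered to 17.1% in WT, 20.2% with 2HG and 20.2% in CLPP-KO. In cluster B the shares were 1.74%, 3.96% and 10.3%. They were 6.87%, 8.86% and 10.9% in cluster C. Cluster D went from 0.318% in WT, a stretch of 340 bp, to 4.73% with 2HG and 9.17% in CLPP-KO. With lists limited to equal size by area, cluster D was covered to 2.31% with 2HG and 7.41% in CLPP-KO. By summit p these shares were 1.24% and 7%. Over all 4 clusters the covered length was 1.48-fold (WT + 2HG) and 2.1-fold (CLPP-KO) that of WT, while the covered length of the whole lists was 1.23-fold and 1.29-fold.

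**Figure D5:**
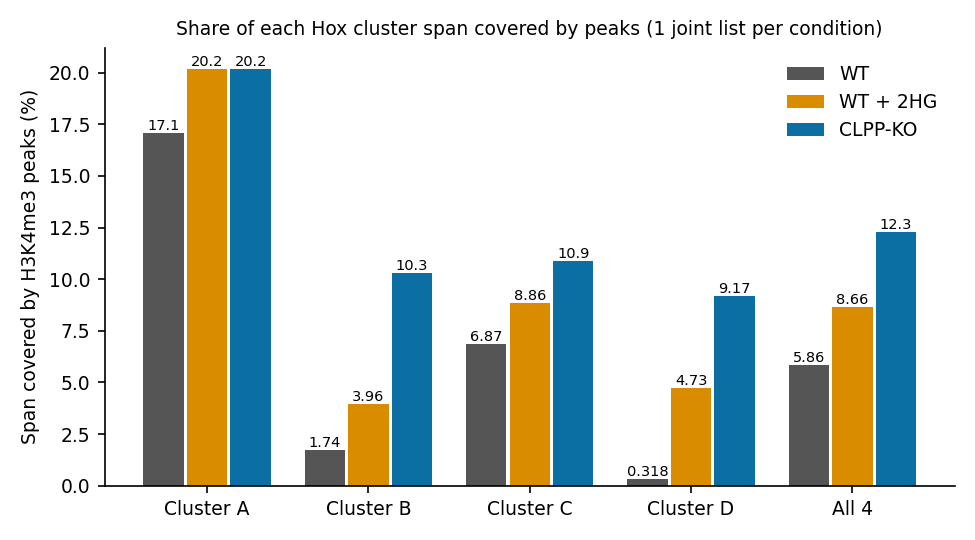
Percent of each Hox cluster covered by H3K4me3 peaks in WT (grey), WT + 2HG (orange) and CLPP-KO (blue), 1 joint list per condition and so without error bars. Cluster A differed little between lists (17.1%, 20.2% and 20.2%), and clusters B and D differed most.

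Noncoding genes of the clusters were marked along with their coding neighbours. Of 35 annotated lncRNA genes, 15 had a promoter peak in WT, 24 with 2HG and 28 in CLPP-KO, beside 16.1%, 18.3% and 19.0% of all lncRNA genes. Hotair, a lncRNA known for binding Polycomb that starts beside Hoxc11, had no WT peak and was at percentile 18.7 and 37.1 in the other lists. Hottip, known for recruiting MLL to the 5′ end of cluster A, was at 18.4, 28.9 and 34.9. These starts share peaks with Hox genes, so that they are not separate evidence.

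Of 7 annotated miRNA genes in the clusters, 6 were matched to RefSeq mature sequences. The 5p arms of Mir10 and Mir196 are shown because these miRNAs form families that share a seed (bases 2 to 8, in capitals), of which Mir196 is known to target Hox transcripts.
mmu-miR-10a-5p: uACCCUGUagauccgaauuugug
mmu-miR-10b-5p: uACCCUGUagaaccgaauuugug
mmu-miR-196a-5p: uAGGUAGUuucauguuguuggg
mmu-miR-196b-5p: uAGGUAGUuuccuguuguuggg
Mir10a and Mir10b share the first seed, and Mir196a-1, Mir196a-2 and Mir196b the second. A peak lay within 2000 bp of the annotated hairpin of Mir10a in every list (22.2, 39.4 and 73.1) and of Mir10b in WT + 2HG and CLPP-KO (12.96 and 25.6), which were promoter peaks of Hoxb4 and Hoxd4. Mir615, the other matched gene, was at 55.7, 59.5 and 62.3, the peaks of Hoxc5. Mir196b had a peak in CLPP-KO alone (61.6), which it shares with Hoxa9, and Mir196a-1 and Mir196a-2 had none in any list. Members of 1 seed family thus differed in their marks. The hairpin's 5′ end need not be the start of the primary transcript.

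Most regulators and cofactors of Hox genes were marked whatever the list, and few differed by 20 points or more in rank, apart from retinoic acid genes. All 9 TALE cofactors (the Meis, Pbx and Pknox homeodomain proteins that bind DNA with Hox proteins), all 8 trithorax and MLL genes, all 15 Polycomb genes and all 5 H3K27 and H3K4 demethylases had a promoter peak in every list. Among these, a rank at least 20 points from that in WT was found for the Polycomb genes Jarid2 (50.0 in WT, 81.2 with 2HG and 71.7 in CLPP-KO) and Phc1 (38.6, 65.2 and 59.8) and, in CLPP-KO, for the cofactor Pbx4 (19.5, 39.1 and 46.9), while 12.8% and 15.8% of protein-coding genes were that much higher with 2HG and in CLPP-KO. In lists of equal size Jarid2 and Phc1 were so with 2HG alone and Pbx4 in neither list. Of 9 retinoic acid and Cdx genes, which set Hox expression in the embryo, 5, 6 and 7 were marked in WT, WT + 2HG and CLPP-KO. Of the 5 marked in every list, 2 were at least 20 points higher than in WT with 2HG (12.8% of protein-coding genes) and 3 in CLPP-KO (15.8%). These were the retinoic acid receptor gene Rarb (2.755 in WT, 32.7 with 2HG and 35.1 in CLPP-KO), and the genes of retinoic acid breakdown Cyp26b1 (33.6, 66.4 and 68.1) and, in CLPP-KO alone, Cyp26a1 (4.09, 12.5 and 38.3). In lists of equal size the differences from WT with 2HG and in CLPP-KO were 28.1 and 27.3 points for Cyp26b1, 20.6 and 17.8 points for Rarb and -3.78 and 20.3 points for Cyp26a1. Aldh1a2, which makes retinoic acid, was at 18.8 with 2HG and 30.5 in CLPP-KO, and Cdx2, an activator of posterior Hox genes, at 10.7 in CLPP-KO alone.

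Among 8 homeobox genes related to the Hox family, 1, 4 and 6 were marked in WT, WT + 2HG and CLPP-KO. Gbx2, a gene of the anterior hindbrain, had no WT peak and was at 46.4 with 2HG and 88.1 in CLPP-KO, as high as the strongest gained Hox genes. Mnx1, a motor neuron gene, was at 29.2 and 36.3, and Gsx2, a forebrain gene, at 11.3 and 30.6. Evx1, next to cluster A, and Gsx1 were marked in CLPP-KO alone, at 12.4 and 0.450. Evx2 and Pdx1 were marked in no list.

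Some cell type markers also differed between lists. Of 5 muscle markers, 0 had a promoter peak in WT, 1 with 2HG (Des, a muscle filament, at 5.83) and 3 in CLPP-KO (Des at 6.63, Myod1 at 10.7 and Pax7 at 53.0, the latter both myogenic regulators), and Myf5 and Myog were marked in no list. Among all protein-coding genes without a WT peak, 11.6% were gained in WT + 2HG and 14.9% in CLPP-KO. In lists of equal size Des and Myod1 had no peak in any list, and Pax7 was still marked in CLPP-KO alone, at 42.4. Nnat among the white adipocyte markers was at 13.02 and 34.3 in WT + 2HG and CLPP-KO, and Cidea and Ebf2 among the brown markers at 21.3 and 33.6, and at 22.2 in CLPP-KO alone. Among markers with a peak in every list, Zic1, a brown marker that encodes a zinc finger transcription factor, was at 28.4, 44.4 and 79.5 in WT, WT + 2HG and CLPP-KO. Pparg, the master regulator of fat cell formation, was at 16.99, 70.4 and 37.3, highest with 2HG. For Pparg the differences from WT in lists of equal size were 49.2 points with 2HG and 6.25 points in CLPP-KO. For Zic1 they were 8.26 and 46.5 points. Dpp4, a preadipocyte marker, had a peak in WT (8.01) and CLPP-KO (10.7) and none in WT + 2HG. The part of other cell types in the Hox peaks was not tested, and more cells with a mark cannot be told apart from more mark per cell.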

How the data were processed

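H3K4me3 ChIP–seq peaks were taken as deposited. Per the submitters' processing notes, reads were trimmed with fastp 0.23.4 and mapped with BWA 0.7.17, and deepTools 3.5.4 was used. Peaks were called with Genrich 0.6.1 on the 4 replicates of a condition jointly with the input. The genome was GRCm39. Deposited columns used were the signal of each peak, which the authors' caller gives as the area under the curve of combined significance, and its summit −log10 p-value. Both grow with depth and enrichment of a library, so ranks within a list were compared.

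Transcript starts came from GENCODE vM39, whose genome build is that of the peaks, and promoter sequences from the GRCm39 genome. Lists were joined to windows in Python 3.11.15 with pandas 2.3.3 and checked against bedtools 2.31.1 and on simulated peaks. CpG observed/expected ratios were computed over 300 bp. Mature miRNA sequences came from RefSeq (GRCm38.p6 tables), used without coordinates.

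The 38 Hox genes are those listed for this work out of 39 annotated, and the remaining 1 is not reported here. Genes whose pattern differed between lists, and the strongest of each cluster and list, were named. Members and gene lists were chosen with earlier results of these data known. The 20 point and CpG thresholds and the comparison of CLPP-KO with WT + 2HG were chosen after the data were seen. Alternatives were other windows, starts, thresholds, list sizes, overlaps and span limits.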

Additional observations from a re-analysis of the deposited data

Results flagged for a closer look

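Peaks in the Hox clusters that lay outside every protein-coding promoter window were picked out because they enter none of the counts of Hox genes and Hox promoter peaks and were more numerous than in untreated WT cells. They are part of the covered lengths and the map of the clusters, and several lie at starts of the noncoding genes counted above. They numbered 5 in WT, 6 with 2HG and 14 in CLPP-KO over the 4 clusters, which was 14.3%, 10.0% and 18.7% of the peaks there, beside 6.85%, 9.82% and 12.7% of the whole lists. In CLPP-KO cluster B held 6, cluster A 4, cluster C 2 and cluster D 2, beside 1, 3, 1 and 0 in WT, and in WT + 2HG cluster C held 2. The strongest of those in cluster B (chr11:96223338-96224323, within the Hoxb3 gene) was at percentile 73.9 in CLPP-KO, and the WT peak there was at 4.56. The pair in cluster D lay between Hoxd4 and Hoxd1, at percentiles 20.8 and 19.3. The latter peak was within 2000 bp of an annotated start of each of the lncRNA genes Gm14424 and Haglr, though not at the 5′ end of Haglr. A peak inside Hoxc5 and Hoxc9 was strong in every list, at 65.8 in WT, 63.2 with 2HG and 69.4 in CLPP-KO. The lists differ in size, and the differences were not tested.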

How the results depend on the processing

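No paired analysis was possible because the 4 replicates of a condition were called together, and for the same reason no replicate was left out in turn. Each condition is 1 list, so no spread between samples stands behind any count, and depth, antibody yield and background per sample are not known here. A WT promoter without a peak is one under the caller's threshold and not one shown to lack the mark. Peaks of neighbouring Hox genes are not independent. Whether the difference between CLPP-KO and WT goes with genotype, cell line or uridine cannot be told apart.

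Of 198 alternative values, 169 stayed within 1.5 times the reported one and 29 did not, and the cause was not tested for any of them. The Hox genes gained numbered 12 to 22 in CLPP-KO and 7 to 12 with 2HG, and in lists of equal size by area 13 and 8. With a 1000 bp window, those gained in WT + 2HG were 7 and those gained in both 7. With an area of at least 1000, WT had 11 marked Hox genes and 14 promoter peaks, WT + 2HG had 33 promoter peaks, and the covered share was 0% for WT in clusters B and D and 1.5% for WT + 2HG in cluster D. With a summit p of at most 1e-05, WT had 17 promoter peaks, and the covered share was 0.613% (WT, cluster B), 0% (WT, cluster D) and 1.24% (WT + 2HG, cluster D). With lists of equal size by area, 1 Hox gene with a WT peak was missing from another list, 12 WT + 2HG promoter peaks overlapped no WT peak, and WT + 2HG covered 2.31% of cluster D. By summit p these were 2, 14 and 1.24%. Assigning each peak to the nearest start left 13 (WT + 2HG) and 18 (CLPP-KO) promoter peaks without WT overlap, and joining peaks within 1000 bp left 14 and 20.

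Other thresholds on the difference in percentile were added after the data were seen. At 10 points, 8 Hox genes were higher and 1 lower in WT + 2HG than in WT, and 3 were lower in CLPP-KO, and at 30 points 0 were lower in CLPP-KO. With the canonical start alone, 2 were at least 20 points lower in CLPP-KO and 1 in WT + 2HG, and with lists of equal size 3 were lower in CLPP-KO. The count of Hox genes at least 20 points higher in CLPP-KO than with 2HG, 17 as reported, was 13 to 19 over these settings. With equal lists the median difference between CLPP-KO and WT was 46.6 points in cluster B and -6.52 points in cluster A, beside -0.535 points over all protein-coding genes.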

Other observations

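The paralogue groups, genes of the same number in different clusters, were not marked alike. The group 9 genes were all marked in CLPP-KO, with Hoxb9 at percentile 91.7, Hoxd9 at 86.8 and Hoxa9 at 79.4, but Hoxc9 at 23.1. In group 4, Hoxa4, Hoxb4 and Hoxc4 were at 71.1, 73.1 and 73.1 in CLPP-KO, and Hoxd4 was at 25.6 at its canonical start and at 58.9 at the start beside that of Hoxd3, whereas in WT Hoxa4 was at 68.5, Hoxc4 at 33.8 and Hoxb4 at 22.2, and Hoxd4 was unmarked. In group 13, Hoxc13 was at 72.7, Hoxa13 at 34.9 and Hoxd13 at 25.6 in CLPP-KO, and Hoxb13 was unmarked.

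Peaks that overlapped each other across the 3 lists were merged, which gave regions of shared sequence. Of the 79 regions in the 4 clusters, 31 (39.2%) were in every list, 19 (24.1%) in WT + 2HG and CLPP-KO, 23 (29.1%) in CLPP-KO alone, 4 (5.06%) in WT + 2HG alone, 1 (1.27%) in WT alone and 1 (1.27%) in WT and CLPP-KO. Over the 15827 regions of the whole lists, 70.3% were in every list, 11.2% in WT + 2HG and CLPP-KO, 10.99% in CLPP-KO alone, 4.68% in WT + 2HG alone, 1.23% in WT alone and 1.02% in WT and CLPP-KO. Cluster B held 11 of the regions found in CLPP-KO alone and cluster D 6. Cluster A held 16 of the regions found in every list and cluster D 1.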
